A study of Caenorhabditis elegans with 36 samples.

Results

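Small RNAs matching the histone genes of Caenorhabditis elegans were followed in young adults and in embryos. The genes were all rows whose WormBase symbol begins with his-, which gave 72 of the 31003 gene rows counted in adults and 72 of the 46740 rows counted in embryos. By a textbook list of symbols they comprised 16 H4, 15 H3, 17 H2A and 17 H2B rows, the linker histone his-24 (H1), and 6 H3 variant or H3-like genes, his-69 to his-74.

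The adult libraries were made from whole animals labelled nip2nip3 (3 libraries), nip3_qe17 (3 libraries) and wt (2 libraries), and the labels describe these genotypes no further. The embryo libraries were made from NRDE-3 immunoprecipitates, pulled down through a FLAG tag with the anti-FLAG M2 antibody, and from inputs. They came from early embryos labelled nipnip2 (2 IP, 2 input) and wt (2 IP, 2 input), all grown at 20 °C on HB101 bacteria like the adults. The label of 1 wt input gives neither the tag nor the antibody and calls its source whole animals. The columns of the embryo tables name the 2 nipnip2 libraries nip1nip1_1 and nip1nip2_2 and carry other numbers than the samples, so embryo libraries are given below as library 1 and library 2 of their group. The study asked about candidate factors in the passing on of RNA silencing to later generations. The 20 longer-RNA libraries of the series are not used here, since their table counts repeat families. No source says whether libraries of a group stem from separate cultures, and p-values reflect only the spread between these libraries, which may be technical. In such bulk samples, fewer cells with a small RNA and less of it per cell cannot be told apart.

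Histone proteins package DNA. H2A, H2B, H3 and H4 form the nucleosome core and are made mostly in S phase from clustered, repeated genes, H1 binds the linker DNA, and H3 variants such as H3.3 are deposited outside replication. In C. elegans, RNA-dependent RNA polymerases copy target transcripts into secondary small RNAs, the 22G-RNAs, which are loaded into worm-specific Argonautes. NRDE-3 is the somatic nuclear Argonaute, which carries such small RNAs into the nucleus and directs silencing there. CSR-1, a germline Argonaute, and its 22G-RNAs are known in C. elegans to act in the maturation of core histone transcripts.

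Many histone genes are near-identical copies, and the counts show it. The 72 rows held 57 distinct count profiles over all 16 libraries, and 26 rows fell into 11 sets of rows with the same count in every library. The largest set was 4 rows named his-51 (H2A), followed by 3 rows each of his-14 (H4) and his-52 (H2B), and by pairs of his-9, his-12, his-15, his-29, his-30, his-46, his-49 and his-50. In adults 36.1% of the histone rows shared their counts with another row. Among all genes whose mean count reached 20, the share was 13.5% in adults, 9.91% in embryo input and 14.5% in the IP, against 34.4%, 43.5% and 41.9% of the histone rows over the same minimum. In adults 97.0% of the histone values were not whole numbers, against 19.8% of all values, whereas the embryo counts were all whole. How reads that match several copies were counted, and on which strand, is not given in the sources used here, so values of single copies are uncertain. The symbol table gave 50 symbols to the 72 rows, with 14 symbols shared by 36 rows, and rows are therefore named by symbol and, where needed, by WormBase ID. Below, a profile is a set of rows with the same counts, counted as 1 where profiles rather than rows are given.

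Library totals ranged from 6362080 to 10962200 counts in adults, from 1149730 to 2200940 in inputs and from 2957530 to 5957020 in the IP. Histone rows took 0.158% to 0.227% of the counts in adults, 0.239% to 0.307% in inputs and 0.0919% to 0.119% in the IP. Adult counts held fractions and embryo counts were whole, so shares of adults and embryos are not like measures and should not be compared. Composition differed strongly between embryo libraries: in 1 fit of all 8, the TMM factors that scale libraries to a common set of genes were 0.11 to 0.40 in the IP and 3.85 to 5.99 in inputs. Fold changes in embryos are therefore given under TMM and under library totals, beside the median of all genes under the same scaling.

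his-24 stood apart from the other histone genes in level. Per kilobase of gene span, in CPM of library totals (counts scaled to a common library total), it had 896 ± 121 in nip2nip3 adults (SD, n = 3), 1112 ± 55.7 in nip3_qe17 adults (SD, n = 3) and 1543 ± 62.3 in wt adults (SD, n = 2). his-67 (H4) came next in all 3 groups, at 166 ± 8.18 in nip2nip3, 125 ± 10.7 in nip3_qe17 and 162 ± 15.6 in wt. The next place was held by his-50 (H4) in both mutants, at 132 ± 24.7 in nip2nip3 and 99.9 ± 9.46 in nip3_qe17, and by his-60 (H4) in wt, at 86.2 ± 6.27. These ranks cover the 44 profiles whose gene span could be read from RefSeq, and his-24 held 51.1% to 61% of the histone counts in nip2nip3, 60.4% to 65% in nip3_qe17 and 70.2% to 71.6% in wt.

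In nip2nip3 adults, small RNAs rose at some histone genes, his-50 (H4), his-7 (H2A), his-51 (H2A) and his-70 (H3 variant) among them, and most rows did not pass the test. Of 71 rows that passed the filter on low counts, 19 were higher and 3 lower than in wt by edgeR's quasi-likelihood test at an adjusted p under 0.05. Among all 16585 genes tested 21.9% were higher and 21.3% lower, so the share of higher histone rows was near that of all genes and the share of lower rows was smaller. The median log2 fold change was 0.34 over the histone rows and 0.05 over all genes. With library totals the medians were 0.03 and -0.27, with 16 rows higher and 4 lower (13.5% and 35.9% of all genes), and the difference from all genes stayed at 0.30 under both scalings. Scaled to microRNA counts, the histone median was -0.20 and that of all genes -0.49, with 12 rows higher and 16 lower. By class, 7 of 16 H4, 2 of 15 H3, 7 of 17 H2A, 1 of 17 H2B and 2 of 5 tested H3 variant rows were higher. The 7 H2A rows include 4 identical his-51 rows, and differences between classes were not tested.

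The largest change was at his-50, an H4 gene whose 2 rows shared all counts. Its normalised level (CPM after TMM scaling) was 36.1, 49.5 and 45.6 in nip2nip3 and 31, 33.1 and 33.4 in nip3_qe17, against 9.42 and 6.79 in wt. Every mutant library lay above every wt library. The nip2nip3 libraries lay above those of nip3_qe17, but his-50 was not called in the direct comparison of the mutants, where 0 of 16 H4 rows were higher. The log2 fold change over wt was 2.43 (SE 0.18, edgeR adjusted p = 3.27e-06) in nip2nip3 and 2.0 (SE 0.18, edgeR adjusted p = 1.48e-05) in nip3_qe17. The H4 gene his-5 rose by 1.22 (SE 0.18) in nip2nip3, with 16.5, 20.2 and 20.2 normalised CPM, against 9.49 and 6.79 in wt.

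The H2A gene his-7, on chromosome V at 8533379 to 8533762 in RefSeq's WBcel235 annotation, followed. Its normalised CPM was 9.08, 10.3 and 10.9 in nip2nip3 and 7.39, 7.24 and 6.79 in nip3_qe17, against 1.84 and 2.2 in wt. No library of a mutant overlapped wt, with log2 fold changes of 2.32 (SE 0.23) in nip2nip3 and 1.81 (SE 0.23) in nip3_qe17. The 4 rows of his-51, also H2A, had 10.6, 11.9 and 12.5 in nip2nip3 and 8.42, 8.90 and 8.15 in nip3_qe17, against 2.49 and 2.97 in wt. Their log2 fold changes were 2.11 (SE 0.21) and 1.65 (SE 0.21), again without overlap with wt. A further H2A gene, his-3 on chromosome V at 16040808 to 16041191, had 12.5, 15.4 and 15.1 in nip2nip3 and 15.4, 13.7 and 15.9 in nip3_qe17, against 5.98 and 6.07 in wt, with log2 fold changes of 1.24 (SE 0.17) and 1.31 (SE 0.17). All of these passed the edgeR test in both mutants and did so with library totals too.

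**Figure D1:**
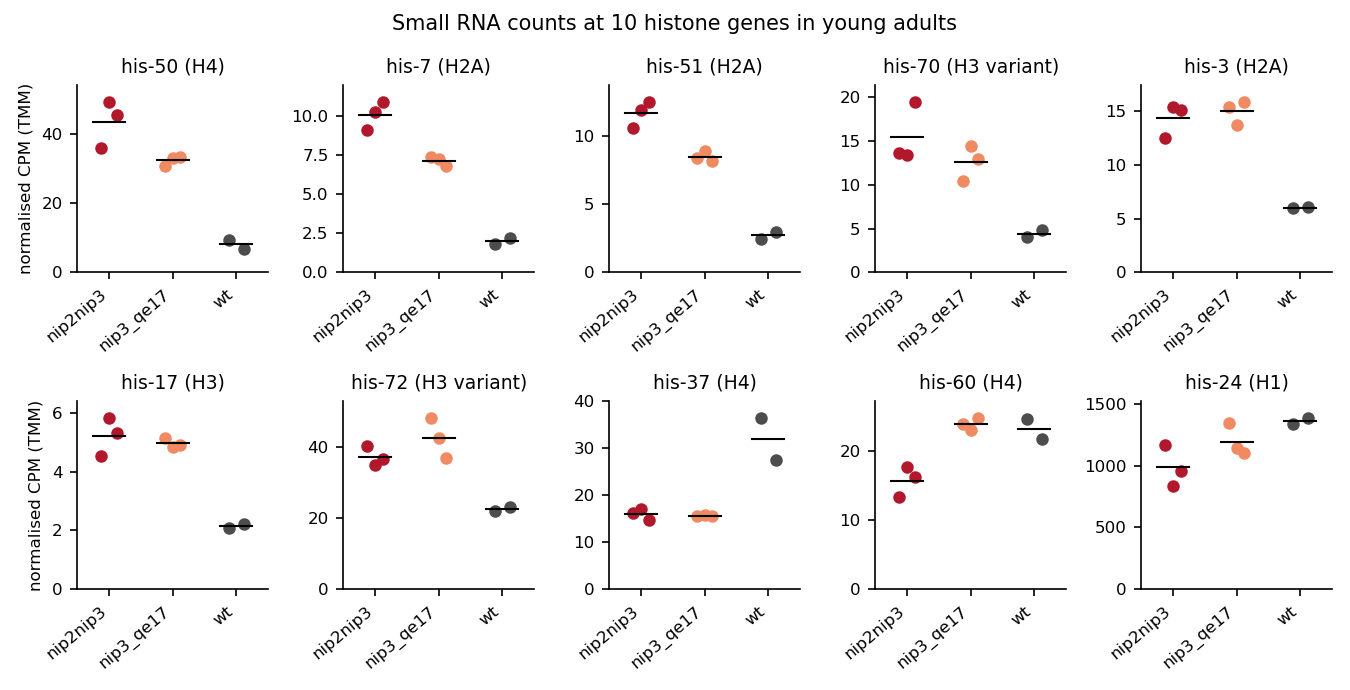
Normalised small RNA counts (CPM after TMM scaling, y axes from 0) at 10 histone genes in young adults of nip2nip3, nip3_qe17 and wt. Points are libraries and bars are group means. his-50 sat at 36.1 to 49.5 in nip2nip3 and at 6.79 to 9.42 in wt, whereas his-37 sat at 14.6 to 17 in nip2nip3 and at 27.4 to 36.4 in wt.

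Among the H3 genes, his-17 rose in both mutants. It had 4.54, 5.84 and 5.31 normalised CPM in nip2nip3 and 5.17, 4.86 and 4.91 in nip3_qe17, against 2.08 and 2.2 in wt, so that the groups did not overlap. The log2 fold changes were 1.28 (SE 0.25) and 1.20 (SE 0.25). The other H3 row called in nip2nip3 was his-59, at 0.76 (SE 0.22), which was not called with library totals (0.44). Among H2B genes, 1 of 4 rows named his-52, WBGene00001928, stood out with 27.9, 25.5 and 26.8 in nip2nip3 and 16.5, 20.3 and 17.4 in nip3_qe17, against 10.6 and 12.4 in wt. Its log2 fold changes were 1.21 (SE 0.15) and 0.65 (SE 0.15), both called by TMM, though the second was not with library totals (0.37, edgeR adjusted p = 0.0936). The 3 other his-52 rows, which shared 1 profile, were not called at 0.17 (SE 0.18) and -0.20 (SE 0.18), and the first of these turned to -0.15 with library totals.

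The H3 variant genes split. his-70, an H3.3-like gene on chromosome III at 4059715 to 4060119, had 13.6, 13.3 and 19.4 normalised CPM in nip2nip3 and 10.4, 14.4 and 12.9 in nip3_qe17, against 4.0 and 4.83 in wt. The log2 fold changes were 1.82 (SE 0.25) and 1.52 (SE 0.25), with no overlap between mutants and wt. his-72, an H3.3 gene, had 40.1, 34.9 and 36.6 in nip2nip3 and 48.1, 42.6 and 36.7 in nip3_qe17, against 22 and 23.0 in wt, and rose by 0.72 (SE 0.13) and 0.91 (SE 0.13). his-71, his-73 and his-74 were not called in either mutant by TMM, with log2 fold changes between -0.54 and 0.00, though his-74 was lower in nip2nip3 with library totals (-0.39, edgeR adjusted p = 0.0469). his-69 had under 1 normalised CPM in every library and was not tested.

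Small RNAs at 3 histone genes fell in nip2nip3. his-37, an H4 gene on chromosome V at 9547105 to 9547607, had 16.2, 17 and 14.6 normalised CPM in nip2nip3 and 15.5, 15.8 and 15.6 in nip3_qe17, against 36.4 and 27.4 in wt. It fell by 1.0 on the log2 scale (SE 0.15) in nip2nip3 and by 1.03 (SE 0.15) in nip3_qe17, and was the only histone row called lower in both. The H4 gene his-60 had 13.3, 17.6 and 16.2 in nip2nip3, against 24.6 and 21.7 in wt, and fell by 0.56 (SE 0.14), a call lost without wt replicate 1 (edgeR adjusted p = 0.0938). The linker histone his-24, on the X chromosome at 14490094 to 14491119, had 1164, 835 and 961 in nip2nip3, against 1339 and 1387 in wt, and fell by 0.47 (SE 0.15). That call was lost without any of 4 of the 5 libraries, all but nip2nip3 replicate 1 (edgeR adjusted p = 0.0844 to 0.12). his-24 was not called in nip3_qe17 by TMM, with 1346, 1140 and 1102 and a log2 fold change of -0.19 (SE 0.15), but was with library totals, at -0.47 (edgeR adjusted p = 0.0176). his-35, an H2A gene in the same cluster as his-37, was not called in either mutant by TMM, at 0.12 (SE 0.11) and -0.14 (SE 0.11), and with library totals these became -0.20 (not called) and -0.42 (lower, edgeR adjusted p = 0.0105).

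In nip3_qe17 adults, 24 histone rows were higher and 1 was lower than in wt, where 17.8% of all genes were higher and 19.1% lower. The median over the histone rows was 0.45, against 0.01 over all genes, and with library totals 0.17, against -0.26, a difference of 0.43 both times. Scaled to microRNA counts, 11 rows were higher and 17 lower, with a histone median of -0.03, against -0.46. Higher rows comprised 7 H4, 5 H3, 6 H2A, 4 H2B and 2 H3 variant rows. Beyond the genes above, his-32 (H3) rose by 0.96 (SE 0.31), with 4.37, 3.25 and 2.99 normalised CPM in nip3_qe17, against 1.89 and 1.69 in wt, a call lost with library totals and without either wt library or nip3_qe17 replicate 1 or 2 (edgeR adjusted p = 0.052 to 0.17). The count of rows called depended on the scaling and on the wt libraries. It was 15 with library totals (11 higher and 4 lower, where 11% of all genes were higher and 30.5% lower), 15 without wt replicate 1 and 16 without wt replicate 3.

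Both mutants were set against the same 2 wt libraries, so their calls are not independent. Of the 71 rows, 17 (12 profiles) were higher in both, 2 were higher in nip2nip3 alone, 7 were higher in nip3_qe17 alone, and 42 were called in neither. Of all genes, 21.9% were higher in nip2nip3 and 17.8% in nip3_qe17. The share of all genes higher in both was not counted, so the overlap is not set against it. Compared with each other, nip2nip3 was higher than nip3_qe17 at 1 histone row and lower at 2, where 2.72% of all genes were higher and 1.47% lower. With library totals 0 rows were higher and 2 lower (2.32% and 1.47% of all genes). The H2B row his-52 WBGene00001928 was higher by 0.56 (SE 0.12, edgeR adjusted p = 0.0312). his-60 (H4), with 13.3, 17.6 and 16.2 in nip2nip3 and 23.9, 23.1 and 24.7 in nip3_qe17, was lower by -0.60 (SE 0.13, edgeR adjusted p = 0.027). his-62 (H2B), with 14.9, 16.3 and 18.4 in nip2nip3 and 30.7, 22.1 and 28.1 in nip3_qe17, was lower by -0.69 (SE 0.15, edgeR adjusted p = 0.0242). These groups did not overlap, but the count of called rows was 0 to 2 when each library was left out in turn: it was 0 without nip2nip3 replicate 1 or nip3_qe17 replicate 3, and 1 without nip2nip3 replicate 2 or 3. his-24, his-35, his-70, his-71, his-72, his-73 and his-74 were not called between the mutants, at -0.28, 0.25, 0.30, -0.30, -0.19, 0.15 and -0.08 on the log2 scale.

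**Figure D2:**
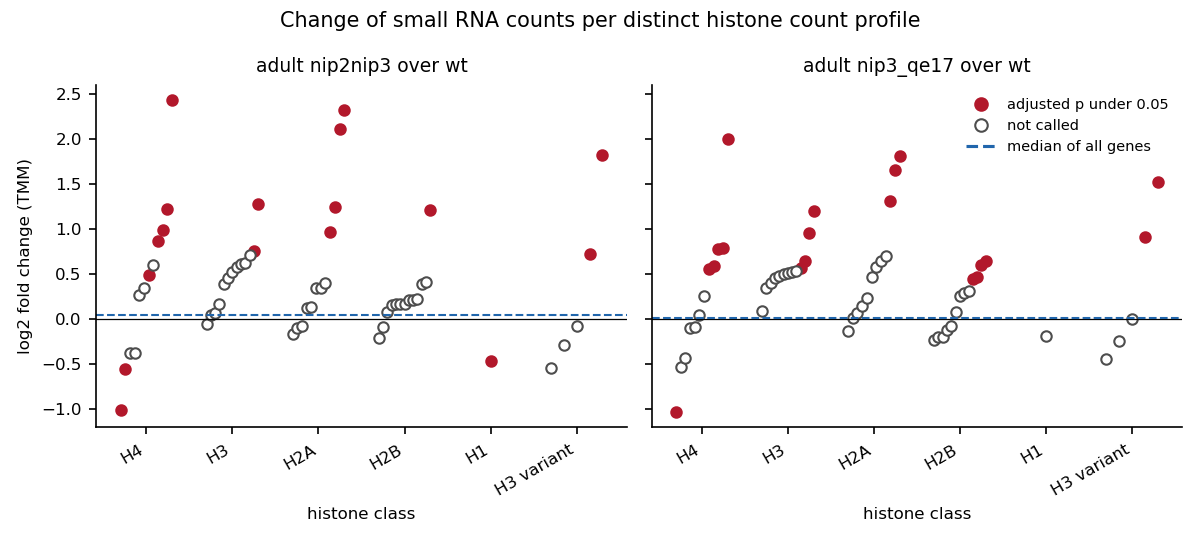
log2 fold changes (TMM) of small RNA counts over wt in nip2nip3 (left) and nip3_qe17 (right), 1 point per distinct count profile, by histone class, filled where the adjusted p was under 0.05, with the median of all genes dashed. The highest points are his-50 (H4) at 2.43 and 2.0, and H2B points lie between -0.24 and 1.21. Scaling to microRNA counts moved the median of the histone rows below 0 in both.

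Adjacent genes of a cluster were called alike in some pairs and not in others. Of all 71 tested histone rows, 19 were higher in nip2nip3 and 24 in nip3_qe17, and pairs of other genes were not examined. RefSeq placed 12 pairs of adjacent histone genes, with symbols held by 1 ID each, 234 to 368 bases apart. In nip2nip3, 1 pair had both genes higher, 6 had 1 gene higher and 5 had none, and in nip3_qe17 the numbers were the same. In both mutants, by TMM, the pair with both genes higher was his-17 (H3) and his-18 (H4), with his-18 at 0.99 (SE 0.20) in nip2nip3 and 0.58 (SE 0.20) in nip3_qe17. his-7 (H2A) rose by 2.32 in nip2nip3 while its neighbour his-8 (H2B) stood at 0.16 (SE 0.17, not called). his-3 (H2A) rose by 1.24 beside his-4 (H2B) at 0.42 (SE 0.21, not called). his-60 (H4) was lower in nip2nip3 while its neighbour his-59 (H3) was higher. A call at 1 gene of a pair and not at the other does not show that their changes differ, and differences between neighbours were not tested.

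Other genes around histones were also targets of small RNAs. Among linker and variant histone genes outside the his- names, 9 of 11 were tested. In nip2nip3, 1 was higher (hil-8, 1.41, SE 0.12) and 2 were lower (hil-3 and hil-4, linker histone genes, at -0.37 and -0.38), and in nip3_qe17, hil-8 (1.09, SE 0.12) and hil-2 (0.39, SE 0.12) were higher and cpar-1 (-0.38), a CENP-A paralogue, and hil-4 (-0.46) were lower. By TMM, 21.9% of all genes were higher and 21.3% lower in nip2nip3, and 17.8% and 19.1% in nip3_qe17, which the counts of these short lists should be read against. With library totals, where 13.5% and 35.9% of all genes were higher and lower in nip2nip3 and 11% and 30.5% in nip3_qe17, hil-2 was no longer called and 5 and 4 of these 9 genes were lower. Of 14 histone supply genes, 0 were higher and 4 lower in nip2nip3 by TMM, among them nasp-1, a histone chaperone, at -0.60 (SE 0.13), cdl-1, the stem-loop binding protein of histone transcripts, at -0.51 (SE 0.13), and chaf-1, a chromatin assembly factor subunit, at -0.43 (SE 0.15). In nip3_qe17, 1 was higher (lin-53 at 0.56, SE 0.13) and 2 were lower (asfl-1 at -0.43 and nasp-1 at -0.38). With library totals 0 were higher in either mutant, lin-53 included, and 9 were lower in nip2nip3 and 6 in nip3_qe17. Small RNAs at all 4 tested CSR-1 pathway genes fell in both mutants. Those at csr-1 fell by 1.29 (SE 0.11) in nip2nip3 and by 1.24 (SE 0.11) in nip3_qe17. Those at drh-3, a helicase that acts with RNA-dependent RNA polymerases, fell by 0.68 (SE 0.11) and 0.51 (SE 0.11). Transcripts and proteins of these genes were not measured here. Of 10 nuclear RNAi and H3K9 methylation genes, 1 was higher and 5 lower in nip2nip3, with nrde-3 at -0.82 (SE 0.27) and hpl-2 at -0.66 (SE 0.17) the most reduced. In nip3_qe17, 3 were higher and 4 lower. With library totals 0 were higher in either mutant, and 7 were lower in nip2nip3 and 5 in nip3_qe17.

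Small RNAs at several sets of cell type markers moved in the same adult comparisons, and their part in the histone result was not tested. Calls are by TMM unless stated, and summed levels are CPM of library totals. By TMM, 21.9% of all genes were higher and 21.3% lower in nip2nip3, and 17.8% and 19.1% in nip3_qe17. With library totals these shares were 13.5% and 35.9% in nip2nip3 and 11% and 30.5% in nip3_qe17. The counts of these short lists should be read against them. Of 49 sperm marker genes 47 were tested, of which 40 were higher and 1 lower in nip2nip3 and 39 higher and 1 lower in nip3_qe17 (37 and 2, and 35 and 1, with library totals). Their summed level was 570 to 720 CPM in nip2nip3 and 564 to 624 in nip3_qe17, against 304 to 373 in wt, with none at 0 in any library. Oocyte markers summed to 556 to 606 in nip2nip3 and 585 to 678 in nip3_qe17, against 787 to 813 in wt, with 0 higher and 3 lower of 9 tested in nip2nip3 and 1 higher and 2 lower in nip3_qe17 (with library totals 0 higher, and 6 and 4 lower). Markers of proliferating and meiotic germline summed to 671 to 747 in nip2nip3 and 779 to 870 in nip3_qe17, against 855 to 864 in wt. Of the 9 tested, 0 were higher and 1 lower in nip2nip3, and 2 were higher and 1 lower in nip3_qe17, whereas with library totals 0 were higher and 6 were lower in nip2nip3 and 4 in nip3_qe17. The 5 muscle markers summed to 1.26 to 2.76 in nip2nip3 and 1.37 to 2.42 in nip3_qe17, against 26.3 to 42.9 in wt, with 1 to 3 of them at 0 in mutant libraries, and the 1 tested was lower in both mutants. The 6 neuron markers summed to 28.9 to 31.5 and 23.4 to 25.3, against 54.9 to 63.1 in wt, with 0 of 5 tested higher in either mutant and 2 lower in nip2nip3 and 3 in nip3_qe17 (4 and 3 with library totals). Early embryo markers summed to 62.7 to 70.3 and 71.2 to 80.5, against 94.0 to 99.6 in wt, with 1 of 6 tested higher and 1 lower in each mutant (with library totals 1 higher in each, and 3 and 2 lower). Intestine markers summed to 22.7 to 33.9 in nip2nip3 and 20.0 to 24.3 in nip3_qe17, against 24.4 to 28.6 in wt. Of 6 tested, 1 was higher and 0 lower in nip2nip3, 0 were called in nip3_qe17, and 0 were called in either with library totals. Hypodermis markers summed to 0.81 to 3.22 and 2.10 to 2.42, against 3.27 to 3.55 in wt, and the 1 tested was not called in either mutant. All these are levels of small RNAs and not of the transcripts they match.

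In embryos, his-24 took a far smaller share of histone small RNAs in the NRDE-3 IP than in input. Without regard to gene length, it had 50.4 and 51.1 CPM in the nipnip2 IP, where the next profile, his-52 WBGene00001928, had 42.6 and 22. In the wt IP it had 30.4 and 21.7, where the top profile, his-46, had 35.9 and 28.2. Per kilobase of gene span, his-24 was not among the 6 highest profiles of either IP. There his-46 (H4) led, at 94.9 in nipnip2 and 103 in wt. Summed over distinct profiles, H2A genes had 179 and 178 CPM in the nipnip2 IP and 268 and 180 in the wt IP, against 279 and 346 in nipnip2 input and 320 and 237 in wt input. H2B genes had 274 and 182 in the nipnip2 IP and 274 and 206 in the wt IP, against 379 and 343 in nipnip2 input and 291 and 346 in wt input. The IP and input ranges overlapped for H2A in wt. Nearly equal profiles stayed apart in these sums. In library 1 of the nipnip2 IP, his-8 had 142 counts, his-52 WBGene00001894 145 and his-52 WBGene00001928 148. Reads shared by such copies may be counted more than once, so class sums and differences between classes are uncertain.

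H3 genes had 121 and 139 in the nipnip2 IP and 146 and 143 in the wt IP, against 237 and 164 in nipnip2 input and 131 and 170 in wt input. H4 genes had 157 and 149 in the nipnip2 IP and 175 and 126 in the wt IP, against 339 and 336 in nipnip2 input and 281 and 226 in wt input, without overlap of IP and input. his-24 had 1485 and 1411 in nipnip2 input and 1226 and 1121 in wt input, with the IP values above. Over all rows, identical copies included, it held 4.81% and 5.50% of histone counts in the nipnip2 IP and 2.54% and 2.36% in the wt IP. In input it held 48.3% and 48% in nipnip2 and 47.1% and 47% in wt, a comparison within libraries that no scaling changes. Over distinct profiles it held 6.36% to 7.20% in the nipnip2 IP and 3.18% to 3.37% in the wt IP. In input it then held 53.4% in nipnip2 and 52.5% to 53.8% in wt. Shares of both kinds depend on how reads that match several copies were counted.

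**Figure D3:**
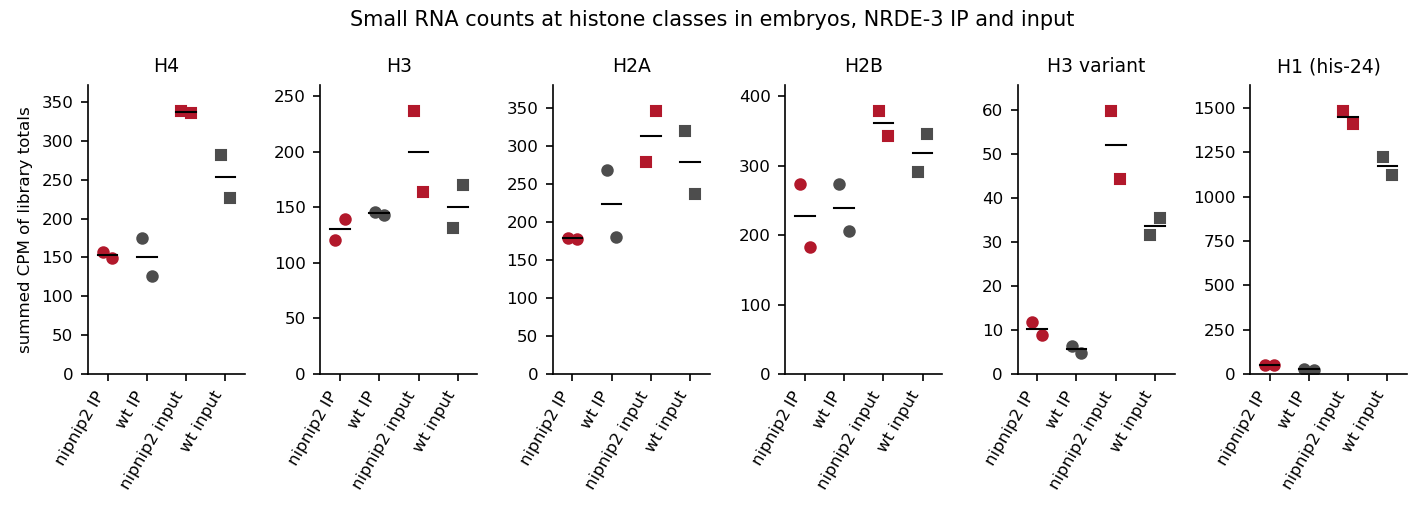
Small RNA counts of 5 histone classes and of his-24 in embryos, summed over distinct profiles as CPM of library totals (y axes from 0), in the nipnip2 IP, wt IP, nipnip2 input and wt input. Points are libraries (circles IP, squares input, nipnip2 in red and wt in grey) and bars are means. his-24 lies at 21.7 to 51.1 in the IP and at 1121 to 1485 in input. Nearly equal profiles stayed apart in the class sums, so shared reads may count more than once.

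In wt embryos, small RNAs of nearly all core histone genes were higher in the NRDE-3 IP than in input relative to other genes. By TMM, 66 of 69 tested rows were higher and 0 were lower, where 11.7% of all genes were higher and 12.8% lower. None of the 3 other rows had an unadjusted p under 0.05 by the edgeR quasi-likelihood test. The direction of single rows depended on the scaling: with library totals 2 rows were higher and 28 lower, where 2.04% of all genes were higher and 95.3% lower, and scaled to microRNA counts 0 were higher and 63 lower. The median of the histone rows was 4.50 by TMM, against -0.59 for all genes, and -0.54 with library totals, against -5.45. The histone rows thus lay 5.09 and 4.91 log2 units above the median gene under these scalings.

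By class, the median of H2A was 5.19 by TMM and 0.14 with library totals, that of H3 5.10 and 0.04, that of H2B 4.75 and -0.31, and that of H4 4.09 and -0.96. With library totals 11 of 16 H4, 7 of 17 H2B, 5 of 15 H3 and 1 of 17 H2A rows were called lower. Differences between classes were not tested. his-59 (H3) had 11.1 and 14.6 CPM in the wt IP, against 6.31 and 6.82 in wt input, the groups not overlapping. Its log2 fold change was 6.02 by TMM (SE 0.35, edgeR adjusted p = 1.38e-15) and 0.96 with library totals (edgeR adjusted p = 0.0192). his-63, the other H3 row called higher under both scalings, had 17.3 and 16.8 in the wt IP, against 9.22 and 11.8 in wt input, at 5.73 by TMM and 0.68 with library totals.

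his-24 and the 3 tested H3 variants lay below most core histone genes. Some core genes were near these variants by TMM, such as his-41 (H2B) at 2.56 and his-40 (H3) at 2.97. The H3 variant his-71 was not tested here. It had 3.32 and 1.68 CPM in the wt IP, against 1.94 and 2.27 in wt input. his-24 was not called by TMM, at -0.45 (SE 0.25), and with library totals was at -5.51, close to the median of all genes under each scaling. his-37, an H4 gene, was at 0.09 by TMM (not called) and -4.89 with library totals. It had 0.89 and 0.50 CPM in the wt IP, against 27.6 and 14.5 in wt input. Its cluster neighbour his-35 (H2A) was at 2.68 and -2.37, and the H3 variants his-72, his-73 and his-74 were at 1.69, 2.02 and 1.12 by TMM and at -3.33, -2.97 and -3.87 with library totals. By TMM his-72 and his-73 were called higher, which for his-72 was lost without either input library or library 2 of the IP, and for his-73 without either IP library or library 1 of input. his-70 had 0 counts in all 4 IP libraries, where 3 counts would be 0.50 to 1.01 CPM. In input it had 9 and 1 counts in nipnip2 and 0 and 3 in wt.

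**Figure D4:**
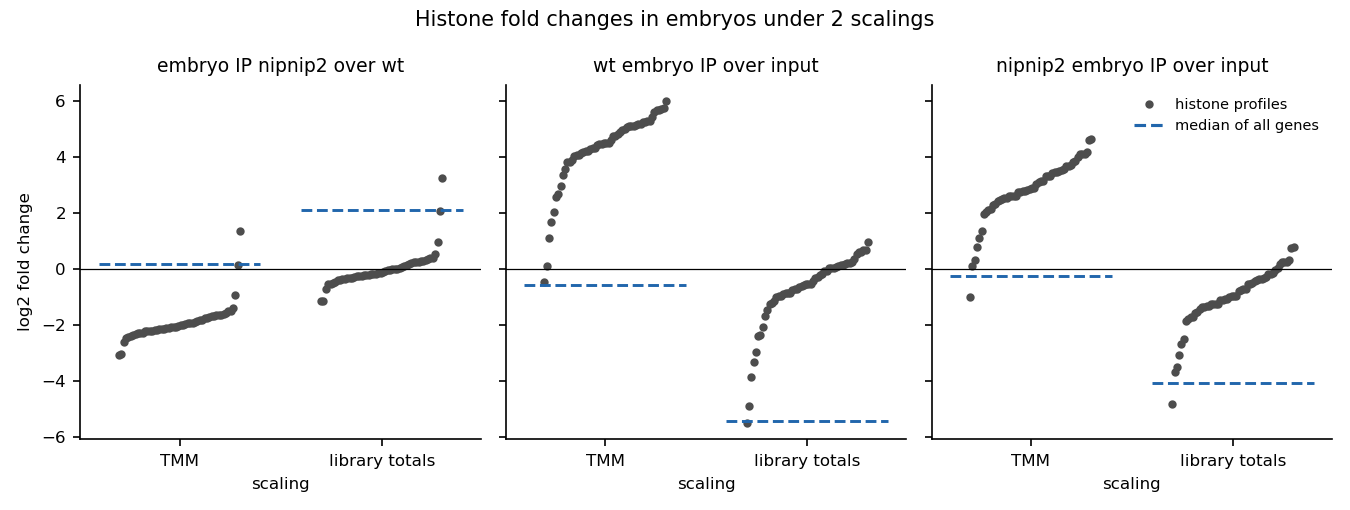
log2 fold changes (y axis) in embryos for the IP of nipnip2 over wt, wt IP over input and nipnip2 IP over input, under TMM and under library totals. Points are distinct histone count profiles in rising order and dashed lines the median of all genes. For wt IP over input the median of histone rows was 4.50 and that of all genes -0.59 by TMM, and -0.54 and -5.45 with library totals, so that the sign flipped with the scaling.

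In nipnip2 embryos the same comparison gave 64 of 69 rows higher and 1 lower by TMM, where 15.8% of all genes were higher and 14.7% lower. With library totals 0 rows were higher and 37 lower (2.65% and 92.9% of all genes), and scaled to microRNA counts 0 were higher and 69 lower. The histone median was 3.05 by TMM, against -0.27 for all genes, and -0.80 with library totals, against -4.08. The rows furthest up were of his-51 and his-7, both H2A. The 4 rows of his-51 had 15 and 17.2 CPM in the nipnip2 IP, against 7.67 and 11.3 in nipnip2 input, and his-7 had 11 and 14.5, against 7.12 and 7.83. Their log2 fold changes were 4.63 (SE 0.38) and 4.6 (SE 0.39) by TMM and 0.79 and 0.76 with library totals, where neither was called. The row called lower by TMM was his-24, at -0.99 (SE 0.25, edgeR adjusted p = 0.00242).

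Between nipnip2 and wt inputs, few histone rows were called by TMM or with library totals. Of 68 tested rows 0 were higher and 1 was lower, where 1.28% of all genes were higher and 5.1% lower. A total of 20 rows had an unadjusted p under 0.05 by the edgeR quasi-likelihood test, and DESeq2 called 0. The share of all genes under this unadjusted limit was not counted, and the shares given here are for adjusted p. Scaled to microRNA counts, however, 46 rows were higher and 0 lower, with a histone median of 1.17, against 1.5 for all genes. The row called lower was the H2B row his-15 WBGene00001885, with 22.5 and 20.9 CPM in nipnip2 input, against 34 and 31.8 in wt input, at -1.17 (SE 0.24, edgeR adjusted p = 0.019), which was not called with library totals (-0.59). The histone median was -0.33 by TMM, against 0.00 for all genes, and turned to 0.25 with library totals, against 0.58. By class the TMM medians were -0.87 for H2A, -0.40 for H2B, -0.35 for H4 and -0.19 for H3. With library totals they were -0.29, 0.18, 0.23 and 0.39. Of 17 H2A rows 0 were called under either scaling, and differences between classes were not tested. With library totals 1 row was higher and 0 were lower, where 17.3% of all genes were higher and 3.41% lower. The row was his-37, with 58.1 and 50.4 CPM in nipnip2 input, against 27.6 and 14.5 in wt input (1.38, edgeR adjusted p = 0.025). The count of called rows was 13 without library 2 of wt input and 7 without library 2 of nipnip2 input, and 2 without library 1 of wt input. Summed small RNAs at oocyte markers were 429 to 474 CPM in nipnip2 input, against 270 to 284 in wt input, and at neuron markers 617 to 658, against 300 to 323. Of 9 tested oocyte and 5 tested neuron markers 0 were called by TMM, with 3 and 2 higher with library totals. Their part in the result was not tested.

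In the NRDE-3 IP, histone small RNAs were lower in nipnip2 than in wt relative to other genes. By TMM 0 of 67 tested rows were higher and 65 were lower, where 10.1% of all genes were higher and 23.4% lower, and 1 further row, his-37, had an unadjusted p under 0.05 with the opposite sign. With library totals 3 rows were higher and 4 lower, where 77.4% of all genes were higher and 5.57% lower. The histone median was -2.04 by TMM, against 0.19 for all genes, and -0.13 with library totals, against 2.09, a distance of -2.23 under both. Scaled to microRNA counts it was 0.03, against 2.33.

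Rows that fell most were his-68 (H2A) and the 3 rows of his-14 (H4). his-68 had 4.32 and 7.10 CPM in the nipnip2 IP, against 13.7 and 11.8 in the wt IP, at -3.07 by TMM (SE 0.39, edgeR adjusted p = 3.79e-14) and -1.16 with library totals (edgeR adjusted p = 0.00503). his-14 had 4.61 and 5.75, against 15.1 and 8.06, at -3.04 (SE 0.39) and -1.13. For both genes the groups did not overlap, and these were the 4 rows called lower under both scalings.

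With library totals 3 rows were called higher, his-24, his-37 and his-72, and of these his-37 alone lay above the all-gene median of 2.09. his-24 had 50.4 and 51.1 CPM in the nipnip2 IP, against 30.4 and 21.7 in the wt IP, and was higher by 0.98 with library totals (edgeR adjusted p = 0.00416) but at -0.93 by TMM (lower, edgeR adjusted p = 0.0109), the TMM call being lost without library 1 of the wt IP or either nipnip2 IP library (edgeR adjusted p = 0.0971 to 0.174). his-37 had 23 and 19 counts in the nipnip2 IP, against 4 and 3 in the wt IP, at 1.35 by TMM (SE 0.60, not called) and 3.24 with library totals (edgeR adjusted p = 2.09e-07). his-72 had 5.48 and 4.06 CPM, against 0.66 and 1.51, at 0.15 by TMM (SE 0.54, not called) and 2.06 with library totals (edgeR adjusted p = 0.000171).

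Oocyte markers had 26.7 to 34 CPM of summed small RNAs in the nipnip2 IP, against 5.98 to 7.72 in the wt IP, and neuron markers 59.7 to 61.5, against 31.6 to 44.3. Of 4 tested oocyte markers 0 were called by TMM and all 4 were higher with library totals, and the 1 tested neuron marker was lower by TMM (-1.24) and higher with library totals. Under library totals, the scaling of these sums, the median log2 fold change was 2.22 over the tested oocyte markers and 2.09 over all genes. Sperm markers summed to 15 to 16.9, against 1.18 to 4.87, and none passed the filter for a test. Their part in the result was not tested. Among 7 tested histone supply genes, 4 were higher and 0 lower by TMM, where 10.1% of all genes were higher, and all 7 were higher with library totals, where 77.4% of all genes were. linc-22, an abundant non-coding locus, took 5.83% and 8.47% of the counts in the nipnip2 IP, against 12.1% and 11.7% in the wt IP.

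The difference between both IP enrichments was tested as an interaction. By TMM the log2 ratio of IP over input was smaller in nipnip2 than in wt at 21 of 69 rows and larger at 0, where 0.822% of all genes were lower and 0.0541% higher. With IP and input of the same column name as a block, 38 rows were lower and 0 higher. A total of 53 rows had an unadjusted p under 0.05 by the edgeR quasi-likelihood test. The share of all genes under that unadjusted limit was not counted, and the shares given here are for adjusted p. With library totals 0 rows were lower and 1, his-37, was higher (1.83, edgeR adjusted p = 0.0413), where 17.7% of all genes were higher and 0.0973% lower. The histone median was -1.47 by TMM, against 0.27 for all genes, and -0.27 with library totals, against 1.33. The lower rows were 5 H4, 7 H3, 6 H2A and 3 H2B rows, led by his-68 (-2.38, SE 0.54) and his-63 (-2.32, SE 0.44). Single libraries decided most of these calls: 1 row was called without library 1 of the wt IP, 1 without library 1 of the nipnip2 IP and 1 without library 2 of the nipnip2 IP. Without library 2 of nipnip2 input it was 4, and without library 1 of wt input 12.

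Adult change was then set beside NRDE-3 binding in wt embryos, gene by gene, over distinct profiles. Between the log2 fold change of nip2nip3 adults and the log2 ratio of IP over input (TMM), Pearson's r was 0.40 and Spearman's rho 0.39 over 54 profiles, and for nip3_qe17 they were 0.43 and 0.44. These are descriptions across genes, which are not independent replicates, share reads between copies and rest on the same libraries. Against the level in the wt IP itself (log2 of CPM + 1), r was 0.10 and rho 0.12 for nip2nip3 and 0.17 and 0.19 for nip3_qe17 over 56 profiles. The ratio had a median of 4.83 over 11 profiles higher in both adult mutants, 4.80 over 8 higher in 1 mutant and 4.45 over 35 higher in neither, and the ranges overlapped.

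Single genes did not follow 1 order. his-50 (H4), with the largest adult change, was at 4.29 in wt embryo IP over input by TMM and at -0.76 with library totals, above its own class's medians of 4.09 and -0.96 and below those of H3 and H2A. his-7 and his-51 (H2A) were at 5.24 and 5.42. his-70, which rose in both adult mutants, had 0 counts in the IP, whereas his-59, with the highest ratio, rose in nip2nip3 adults by 0.76 and was not called in nip3_qe17 (0.35). his-37 was lower in both adult mutants and had one of the lowest ratios, at 0.09.

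**Figure D5:**
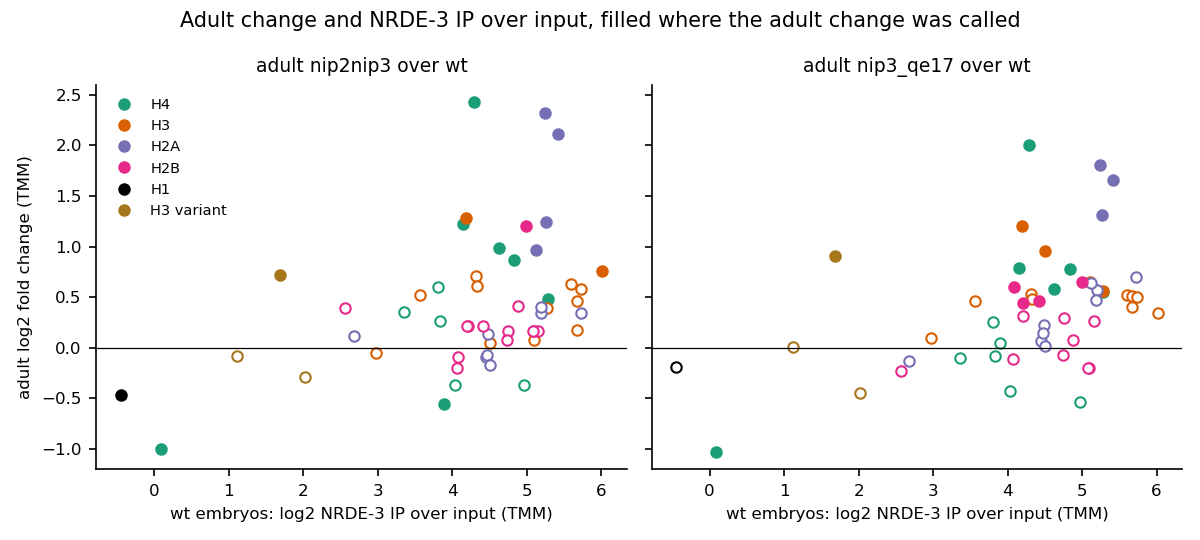
log2 fold change of small RNAs in nip2nip3 (left) and nip3_qe17 (right) adults over wt (y axes) against the log2 ratio of NRDE-3 IP over input in wt embryos (TMM, x axes), 1 point per distinct count profile, coloured by class and filled where the adult change was called. Over 54 profiles r was 0.40 and 0.43. his-24 sits at the low end of the x axis, at -0.45, and the sign of the x values changes for most profiles with library totals.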

How the data were processed

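Small RNA libraries were made with a 5′-independent protocol and Illumina TruSeq, per the labels' protocols. The authors deposited gene tables of small RNA counts. The embryo tables hold whole counts per gene. The adult table holds estimated counts, deposited by the authors with fractions, which were rounded before testing. The submitters' processing notes name cutadapt, STAR, featureCounts, DESeq2 and ce11, with no role or version.

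Libraries were scaled by TMM, genes were kept by filterByExpr, and every table was tested whole with edgeR 4.0.16 quasi-likelihood tests (limma 3.58.1, R 4.3.3), with Benjamini-Hochberg adjusted p under 0.05 as the call. The SE is the log2 fold change over the square root of F. Adults were fitted together (8 libraries), inputs and IP each alone (4 libraries), and IP over input and its interaction over all 8 embryo libraries. Alternatives were RLE, library totals and microRNA scaling, no filter, DESeq2 1.42.0, 1 row per identical set, a replicate block and leaving out each library. Scripts were tested on simulated data without the difference in composition seen between IP and input, so that test does not bear on the choice of scaling. Floors of 3 counts cover counting error only.

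The histone members, classes and lists were chosen with earlier results of these data known. Named genes were the furthest changed called rows, up to 8 a direction in adults and 4 in embryos, plus his-24, his-35 and his-69 to his-74. Other genes were named after their values were seen. Positions are from RefSeq WBcel235 and are given for symbols held by 1 ID. The level per kilobase uses the RefSeq gene span, introns included.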

Additional observations from a re-analysis of the deposited data

Results flagged for a closer look

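The difference between nip2nip3 and nip3_qe17 adults, which were compared directly, passed the edgeR test at 3 histone rows: his-52 (WBGene00001928, H2B) at 0.56, his-60 (H4) at -0.603 and his-62 (H2B) at -0.692 on the log2 scale. With library totals his-52 was no longer called (adjusted p = 0.0728 by edgeR), whereas his-60 and his-62 were.

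The IP over input ratio differed between nipnip2 and wt embryos by TMM at 17 distinct profiles. The log2 differences were -2.38 at his-68, -2.32 at his-63, -2.18 at his-30, -2.17 at his-42 and -2.07 at his-14. They were -2.13 and -2.12 at the his-45 rows WBGene00001919 and WBGene00001929, and -1.95 and -1.99 at the his-9 rows WBGene00001883 and WBGene00001899. At the his-47 rows WBGene00001921, WBGene00001931 and WBGene00001939 they were -1.92, -1.88 and -1.98. The others were -1.83 at his-4, -1.78 at his-60, -1.71 at his-48, -1.64 at his-58 (WBGene00001940) and -1.52 at his-64. With library totals none of these rows was called, and all 17 values kept their sign.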

How the results depend on the processing

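Counts of called histone rows depended on the scaling in embryos. With library totals they were 7 for the IP of nipnip2 over wt (65 by TMM), 37 for nipnip2 IP over input (65), 30 for wt IP over input (66) and 1 for the interaction (21), and in adults 15 for nip3_qe17 over wt (25). With microRNA scaling they were 2 for the IP of nipnip2 over wt, 0 for the interaction and 46 for input, all higher. The interaction gave 32 with RLE, 44 with DESeq2 and 36 with 1 row per identical set. Input gave 6 with no filter, 0 with DESeq2 and 6 in 1 fit of all embryo libraries. Leaving out each library gave 0 to 2 for nip2nip3 over nip3_qe17, 17 to 23 for nip2nip3 over wt, 15 to 20 for nip3_qe17 over wt, 62 to 65 for the IP, 1 to 16 for the interaction, 1 to 13 for input and 64 to 66 for each IP over input. The cause was not tested.

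Same-numbered adult libraries deviated together with correlations of 0.16, -0.00466 and 0.115 between the mutants, 0.212 and 0.151 between wt and nip2nip3 and 0.00353 and 0.0766 between wt and nip3_qe17, so the numbers were not taken as pairs. With the replicate block the interaction gave 38 rows, and the correlation of IP and input of the same column name was -0.0524 in wt and 0.129 in nipnip2. For nipnip2 over wt within the IP or within input, no paired fit was run. No paired analysis was possible because the labels of these groups share only 1 number and the columns do not carry the labels' numbers.

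Named rows whose sign turned are given as log2 values. In adult nip2nip3 over wt, his-35 was -0.20 with library totals and -0.42 with microRNA scaling, and his-74 ranged from -0.22 to 0.074 with a library left out. In nip3_qe17 over wt, his-74 was -0.012 with RLE, -0.27 with library totals, -0.47 with microRNA scaling, -0.012 with DESeq2, -0.00701 with the block and -0.13 to 0.16 with a library left out. So left out, his-71 ranged from -0.81 to 0.15 there and from -0.72 to 0.27 in nip2nip3 over nip3_qe17. In embryo input, library totals and microRNA scaling gave 0.31 and 1.23 at his-24, 0.54 and 1.45 at his-35, 0.43 and 1.36 at his-72 and 0.30 and 1.22 at his-74, and microRNA scaling gave 0.33 at his-15. With a library left out, his-35 ranged from -0.087 to 0.026 and his-72 from -0.43 to 0.022. In the IP of nipnip2 over wt, they gave 0.98 and 1.1 at his-24 and 0.40 and 0.45 at his-35, and microRNA scaling gave 0.064 at his-71, while his-72 ranged from -0.37 to 0.99 with a library left out. In the interaction, library totals gave 0.66 at his-24 and 0.36 at his-74, and his-72 ranged from -0.020 to 1.28 with a library left out. For wt IP over input, they gave -2.37 and -3.60 at his-35, -3.33 and -4.79 at his-72, -2.97 and -4.37 at his-73 and -3.87 and -5.24 at his-74, and microRNA scaling gave -0.74 at his-45 (WBGene00001929), -0.43 at his-59, -0.62 at his-61 and -0.67 at his-63. For nipnip2 IP over input, they gave -2.51 and -4.58 at his-35, -1.72 and -3.80 at his-72, -3.70 and -5.77 at his-73 and -3.51 and -5.57 at his-74. There microRNA scaling gave -1.81 at his-12, -1.74 at his-3, -1.28 at his-51 and -1.31 at his-7, and no filter gave -0.23 at his-73 and -0.045 at his-74. his-73 was also -0.000988 with RLE and -0.092 to 0.41 with a library left out.

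Depth limits the H3 variants and his-37 in the IP, where most had under 25 counts.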
